A study of Bos taurus with 6 samples.

Results

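DNA repair genes were followed in granulosa cells, the somatic cells that surround the oocyte in its follicle, of aged and young cows. A list of 48 genes was taken by symbol and divided into base excision, mismatch, nucleotide excision and double-strand break repair, with a small group of crosslink repair (Fanconi) genes. Of the 48 genes, 44 had at least 1 probe with a gene name, 62 probes in all, on an array of 43794 gene probes that represent 15216 named genes. MRE11 and H2AX stand in the array annotation under their older symbols MRE11A and H2AFX. BRCA2, MSH3, PARP2 and ERCC6 had no named probe and were not analysed here.

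The study asked how the dominant follicle shortly before ovulation differs with the age of the cow. All 6 animals were Hereford cattle: 3 aged cows were multiparous, and 3 young animals were nulliparous heifers (called young cows here). All 6 had their cycles synchronised with PGF2 alpha, received 25 mg of luteinizing hormone (LH) on day 6 and had the preovulatory dominant follicle collected on day 7, 24 h after LH, so that both ages carry the hormone treatment and no sample from before LH was available for comparison. Per the labels' protocols the animals were 3 mother and daughter pairs, but no label says that the cows hybridised together are such a pair, and collection by aspiration or after ovariectomy is not tied to a cow. RNA was linearly amplified, labelled with Cy3 or Cy5 and hybridised on 6 arrays, each with an aged and a young cow. Pairs are named here by their aged cow: pair 13 set it against young cow 11, pair 110 against young cow 7 and pair 126 against young cow 184. A repeat array of every pair had the dyes swapped. A replicate is therefore a pair of cows, and n = 3 pairs throughout.

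Base excision repair removes small base lesions: a glycosylase cuts out the damaged base, an endonuclease opens the strand, and a polymerase and ligase fill the gap. Mismatch repair corrects copying errors behind the replication fork, and nucleotide excision repair cuts out bulky lesions such as those made by ultraviolet light. Double-strand breaks are bound by a sensor complex, signalled by kinases, and closed either by direct joining of ends or by recombination with the sister chromatid, a route open mainly in dividing cells. The follicle's granulosa cells stop dividing and begin to luteinize after the LH surge.

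The samples themselves differed in cell markers, and these values stand beside every ratio below. Across 8 tested granulosa markers of 14 listed, young cow 11 had a mean log2 signal of 9.23, against 11.67 to 13.23 in the others. Of these 8, 5 passed the detection filter given below through the aged cows' channels alone, which favours lower signal in young cows. Further genes of this list were chosen after their values were seen. GATA4, SERPINE2 and CDH2, above background in both ages, were lowest in young cow 11, at 8.81, 10.80 and 8.49. FOXL2 and NR5A1, near background and not tested, were not lowest there (8.32 and 8.44). INHA, the inhibin alpha subunit made by granulosa cells, read 10.48 in young cow 11 against 14.87 to 15.17 in the other 5 cows. The INHA ratio of pair 13 was 6.83 with the aged cow in Cy5 and 2.43 with it in Cy3, so its size is not well measured. Across 9 tested epithelial markers of 12 listed, the mean was 12.56 in young cow 11 and 12.58 in young cow 7, and 9.24 to 10.27 in the other 4. EPCAM, an epithelial surface protein, read 15.00 and 12.98 in young cows 11 and 7 and at most 9.78 in the others. The keratin gene KRT19 read 14.69 and 15.37 in these same young cows. It read 12.16 in aged cow 126, 11.53 in young cow 184, and 9.20 and 9.45 in aged cows 13 and 110. CDH1, CLDN7 and ELF3 of this list, chosen after their values were seen, were near background in all cows. Across 9 tested markers of luteinizing granulosa cells (of 10 listed), the mean was 11.50, 13.07 and 11.85 in aged cows 13, 110 and 126 and 9.01, 9.89 and 11.48 in young cows 11, 7 and 184. Of these 9 genes, 7 were higher in the aged cow in all 3 pairs, against 22.6% of all tested genes. However, 5 of the 9 passed the detection filter given below through the aged cows' channels alone, which favours ratios above 0. APEX1, PARP1, MSH6, MRE11 and ATR below, which were picked by their p, were also higher in all 3 pairs. STAR, which carries cholesterol into mitochondria for steroid synthesis, had ratios of 3.74, 2.0 and 1.68. Leukocyte markers (8 tested of 12) averaged 11.24 in aged cow 126 and 8.54 to 10.05 elsewhere, with TYROBP, an adaptor protein of myeloid cells, at 13.87 in aged cow 126. PTPRC of the same list, chosen after its values were seen, ran the other way and was lower in the aged cow in all 3 pairs. It read 12.03 in aged cow 126, 12.54 in young cow 7 and 12.33 in young cow 184. The sample labelled as granulosa cells of young cow 11 was thus low in the tested granulosa markers, and pairs 13 and 110 compare samples that differ in epithelial signal. The part of these differences in the repair gene ratios was not tested, and values for each pair are given so that each can be read alone. With bulk RNA, fewer cells of a type and less RNA per cell cannot be told apart.

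A probe was tested when its signal stood above the negative control spots in all channels of at least 1 age. By this filter 31 of the 44 repair genes were tested, and 8929 of 15216 genes on the whole array. The signal of 20 repair genes was above background in both ages on all arrays. The other 11 passed through the aged cows' channels alone, so the filter favoured ratios above 0 for them, and none passed through the young cows' channels alone. Over the whole array, 1731 genes passed through the aged channels alone and 251 through the young ones alone. Most of the tested repair genes were dim: 19 of 31 had a mean log2 signal within 1 unit of the negative control median of 8.28, where background compresses a ratio toward 0.

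Detection differed in number between the classes. Base excision repair had 7 of 9 genes tested, mismatch repair 3 of 4, double-strand break repair 16 of 19, and nucleotide excision repair 3 of 9. ERCC2, a helicase of the transcription factor complex that opens the helix around a lesion, ERCC4, part of the nuclease that cuts beside it, and DDB2, a sensor of ultraviolet damage, were above background in no channel of any array. LIG3, the ligase that seals base excision gaps, and BRCA1, which guides broken ends into recombination, were also above background in no channel. A further 8 genes (MUTYH, PMS2, ERCC3, ERCC5, XPC, RAD54L, XRCC3 and FANCA) were above it in some channels only. These 13 genes were not tested. XPC, the sensor that finds distorted helices, read 8.51, 8.43 and 8.39 in aged cows 13, 110 and 126 and 8.97, 8.76 and 8.13 in young cows 11, 7 and 184, with ratios of -0.46, -0.33 and 0.26.

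**Figure D1:**
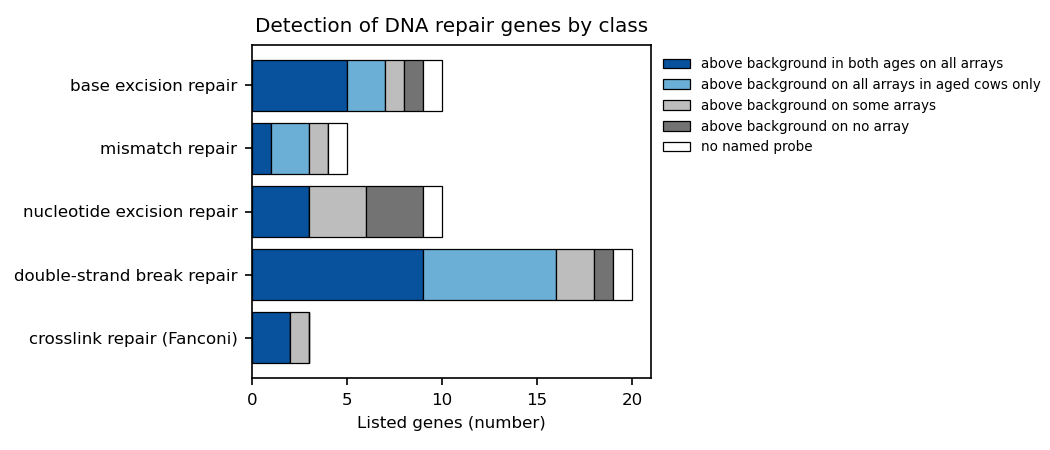
Bars give the number of listed repair genes in each class (horizontal axis, genes), divided by whether the gene's brightest probe stood above the negative controls. Nucleotide excision repair had 3 of its 9 genes with a named probe tested, and double-strand break repair 16 of 19.

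Ratios are given as log2(aged / young), the mean of the 2 dye-swapped arrays of a pair, with the SD over the 3 pairs. With limma p-values adjusted by Benjamini-Hochberg over every probe kept, 0 of the 31 repair genes passed 0.05, and over all tested genes 0% passed as well. The smallest adjusted p was 0.461, for repair genes and for the whole array, and an exact sign-flip test over 3 pairs cannot go below 0.25. At an unadjusted limma p under 0.05 there were 5 repair genes (16.1%), against 11.6% of all tested genes. These were APEX1, MSH6, MRE11, PARP1 and ATR, all with higher signal in the aged cows, and the first 3 passed the filter through the aged channels alone. Among genes above background in both ages the count was 2 of 20 (10%), below the 11.8% of all genes that met this condition. The ratio was above 0 in all 3 pairs for 11 of the 31 genes (35.5%) against 22.6% of all tested genes, and below 0 in all 3 for DDB1 alone, against 16.1%. Among the 20 genes above background in both ages, which the filter does not push either way, the counts were 5 higher (25.0%) against 19.3% of all genes that met the same condition, and 1 lower (5.0%) against 17.9%. Any value above 0 was counted. NBN and TP53BP1 are among the 5 with ratios of only 0.0044 and 0.012 in pair 126, where their 2 arrays had opposite signs. The share of repair genes higher in every pair lay closer to the background share once the genes detected through the aged cows alone were set aside.

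The median ratio of the 31 genes was 0.33 in pair 13, 0.12 in pair 110 and 0.14 in pair 126, and the median of the mean ratios was 0.23. All tested genes had medians of 0.02, 0.03 and 0.03 in these pairs and 0.06 for the mean. For the 20 genes above background in both ages the median was also 0.23, but by pair it was 0.44, 0.07 and 0.05. All 44 genes with a probe, tested or not, had a median of 0.09, with 13 (29.5%) above 0 and 3 (6.8%) below 0 in every pair. Over all genes on the array, tested or not, the median was 0.002, with 17.7% above 0 and 18.1% below 0 in every pair. The mean ratio was above 0 for 26 of the 31 tested repair genes. The share of all tested genes with such a mean was not computed, and their median of 0.06 was also above 0. The filter favoured a mean above 0 for the 11 repair genes that passed through the aged channels alone. A mean ratio of at least 1 in size, a 2-fold difference, was reached by FANCI and DDB1 only. The 2 arrays of a pair gave the same sign for 19, 24 and 20 of the 31 genes in pairs 13, 110 and 126.

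**Figure D2:**
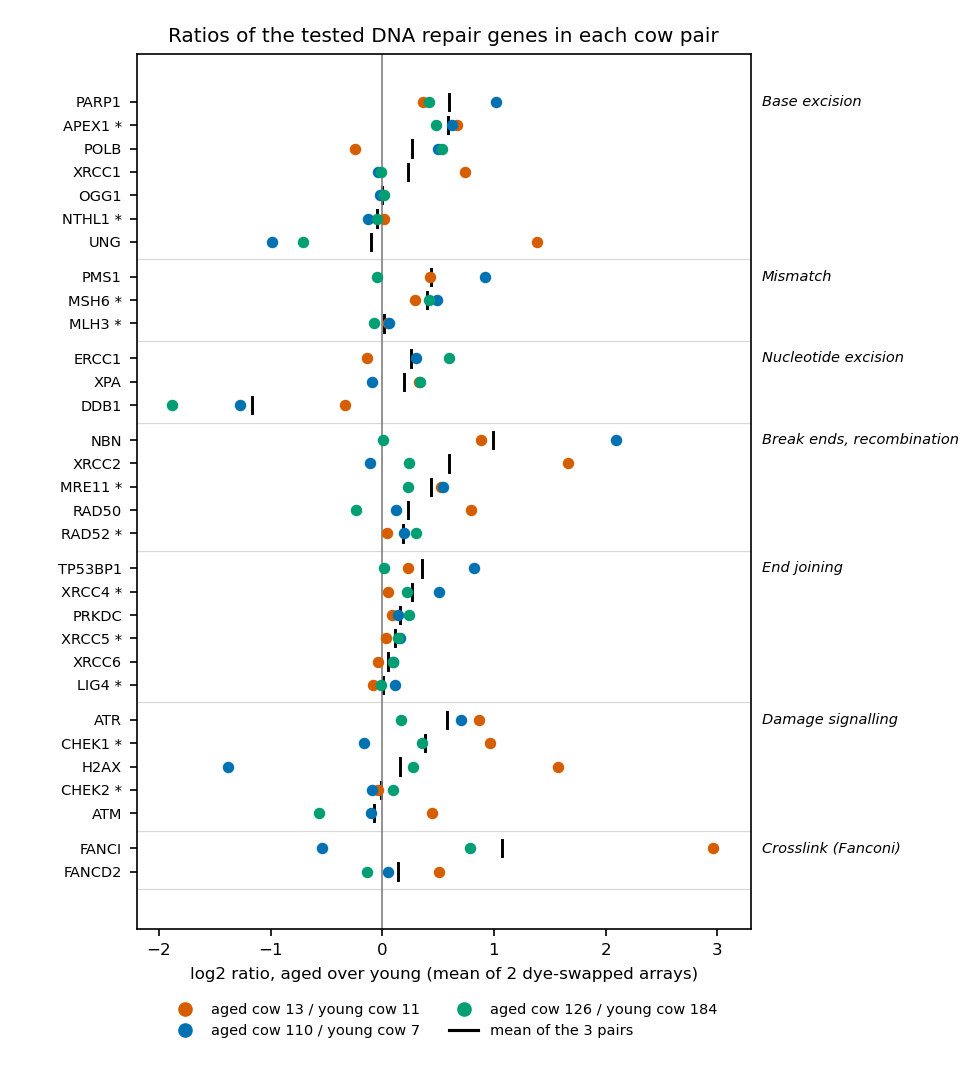
Points give the log2 ratio of aged over young (horizontal axis) for each of the 31 tested repair genes in the 3 cow pairs, and the black tick gives their mean. An asterisk marks the 11 genes that were above background on all arrays in aged cows only. APEX1, MSH6 and MRE11 have 3 points close together above 0, whereas FANCI, H2AX and UNG spread over more than 2 log2 units.

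In base excision repair, APEX1 and PARP1 stood out from the rest of the class. APEX1 is the endonuclease that opens the strand where a base has been removed. Its log2 signal was 8.99 in aged cow 13, 9.00 in aged cow 110 and 9.13 in aged cow 126, against 8.32 in young cow 11, 8.37 in young cow 7 and 8.65 in young cow 184. Every aged cow was above every young cow, and the gaps in the 3 pairs, averaged over dyes, were 0.67, 0.62 and 0.48. The arrays of a pair were less alike. With the aged cow in Cy5 and in Cy3, the ratio was 0.40 and 0.94 in pair 13 and 0.60 and 0.65 in pair 110. In pair 126 it was 0.10 and 0.86. This spread between dyes is not part of the SD and interval given below. The probe was above background in 6 aged channels and in 4 of 6 young ones, and young cows 11 and 7 lay under 8.38, the level that 95% of negative controls stay below, so that the size of the difference is not well measured. The mean of the measured ratios was 0.59 ± 0.10 (SD, n = 3), with a 95% interval of 0.37 to 0.81 and an adjusted limma p of 0.461. A further APEX1 probe, above background in 1 channel only, read 0.04.

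PARP1 binds nicked DNA and builds chains of ADP-ribose that call in other repair proteins, and its probe stood far above background. Its log2 signal was 14.04, 14.11 and 13.82 in aged cows 13, 110 and 126, and 13.68, 13.10 and 13.41 in young cows 11, 7 and 184. The age groups did not overlap here either, and all 6 arrays gave a higher aged signal. The mean ratio was 0.60 ± 0.36 (n = 3), 1.51-fold, with an interval of 0.03 to 1.17 and an adjusted limma p of 0.465, and pair 110 gave the highest value of 1.02.

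The other members of the class did not share that pattern. UNG, the glycosylase that removes uracil from DNA, had log2 signals of 11.30, 9.63 and 9.79 in aged cows 13, 110 and 126 and 9.91, 10.62 and 10.49 in young cows 11, 7 and 184. Aged cow 13 was thus the highest of the 6 and the other aged cows the lowest, and the ratio was 1.39, -0.99 and -0.71. XRCC1, the scaffold that holds the gap-filling enzymes, had a ratio of 0.74 in pair 13 and of -0.04 and -0.01 in the others. POLB, the gap-filling polymerase, ran the other way, with -0.25 in pair 13 and 0.50 and 0.54 in the other pairs. A dimmer POLB probe that passed the filter did not repeat this order, with 0.07, 0.12 and -0.004 in pairs 13, 110 and 126. OGG1 and NTHL1, glycosylases for oxidised bases, had mean ratios of 0.00 ± 0.02 and -0.05 ± 0.07 at signals close to background. The class median was 0.23, but by pair it was 0.36, -0.02 and 0.01.

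Among mismatch repair genes, MSH6, which helps to recognise the mismatched base, was the only tested gene above 0 in all 3 pairs. Its log2 signal was 9.22, 9.11 and 9.00 in aged cows 13, 110 and 126 and 8.93, 8.62 and 8.58 in young cows 11, 7 and 184. The lowest aged cow stood above the highest young cow by a narrow margin, and the ratios within pairs were 0.30, 0.49 and 0.42. In every pair the ratio was larger with the aged cow in Cy5 (0.50, 0.65 and 0.64) than in Cy3 (0.10, 0.33 and 0.21). The mean was 0.40 ± 0.10 (n = 3), with an interval of 0.19 to 0.62 and an adjusted limma p of 0.461, and 5 of 6 young channels were above background. PMS1, a partner in the complex that acts after recognition, had 0.43, 0.92 and -0.04 in pairs 13, 110 and 126. MLH3, of the same protein family, was near 0 in all 3 pairs at a signal near background. The class median of the 3 tested genes was 0.40.

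Nucleotide excision repair held the repair gene with the lowest ratio. DDB1 forms the ultraviolet damage sensor with DDB2 and is also an adaptor of a ubiquitin ligase. Its log2 signal was 10.73, 11.00 and 10.94 in aged cows 13, 110 and 126, and 11.06, 12.28 and 12.83 in young cows 11, 7 and 184. The aged cows were close to each other and all below the young cows, which spread over a wider range. The ratio was -0.33, -1.28 and -1.88, with a mean of -1.16 ± 0.78 (n = 3), or 2.24-fold lower, an interval of -2.35 to 0.02 and an adjusted limma p of 0.48. Of the 6 arrays, 1 gave the opposite sign. In the same class, ERCC1, partner of the nuclease ERCC4, had 0.26 ± 0.37 and XPA, which checks the opened lesion, 0.19 ± 0.24, each with 1 pair below 0. A dimmer ERCC1 probe that passed the filter had 0.01, 0.01 and 0.19 in pairs 13, 110 and 126. The class median over 3 tested genes was 0.19, but by pair it was -0.14, -0.09 and 0.34.

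The complex that first binds broken DNA ends is made of MRE11, RAD50 and NBN. MRE11, its nuclease, had log2 signals of 9.02, 9.14 and 8.98 in aged cows 13, 110 and 126 and 8.50, 8.60 and 8.75 in young cows 11, 7 and 184. It was above background in 5 of 6 young channels. The groups did not overlap, all 6 arrays gave a higher aged signal, and the mean ratio was 0.43 ± 0.18 (SD), with an interval of 0.12 to 0.74 and an adjusted limma p of 0.461. NBN, which brings the complex to its signalling kinase, had 11.21, 11.30 and 10.85 in the aged cows and 10.33, 9.21 and 10.85 in the young cows. Its ratio was 0.88 and 2.09 in pairs 13 and 110 and 0.00 in pair 126, with a mean of 0.99 ± 1.05. Pairs 13 and 110 also differed more than pair 126 in the epithelial and luteinizing lists, and the part of either was not tested. RAD50, the arm that bridges both ends, had 0.80, 0.13 and -0.23, with no common direction. The subunits of this complex therefore did not share 1 pattern over the cows.

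In recombination, RAD52, which anneals single strands, had small ratios of 0.05, 0.19 and 0.31 and was above background in 3 of 6 young channels. XRCC2, a recombination protein that helps load the strand exchange filament, had 1.66 in pair 13, -0.11 in pair 110 and 0.24 in pair 126, and its dimmer further probe ran in the same order with 0.50, -0.01 and 0.12. Among the end-joining genes, TP53BP1, which shields ends and favours joining, had 0.23, 0.83 and 0.01 in pairs 13, 110 and 126. XRCC5 and XRCC6, which encode the Ku ring that slides onto a broken end, had means of 0.11 ± 0.07 and 0.05 ± 0.07. PRKDC, the kinase that Ku recruits, had 0.16 ± 0.08. The sealing pair, XRCC4 and the ligase LIG4, had 0.26 ± 0.23 and 0.01 ± 0.10. A dimmer LIG4 probe, above background in 3 of 6 young channels, had 0.04, 0.23 and 0.16 in pairs 13, 110 and 126. XRCC5, PRKDC, XRCC4 and TP53BP1 were above 0 in all 3 pairs, and the median of the 6 end-joining genes was 0.13, beside 0.43 for the 5 tested break-end and recombination genes.

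Of the signalling kinases, ATR, which answers to stretches of single-stranded DNA at stalled forks and resected ends, had log2 signals of 10.40, 9.93 and 9.54 in aged cows 13, 110 and 126 and 9.53, 9.23 and 9.37 in young cows 11, 7 and 184. The lowest aged value lay just above the highest young value. The ratio was 0.87, 0.71 and 0.17, with a mean of 0.58 ± 0.37 (SD), with an interval of 0.01 to 1.15 and an adjusted limma p of 0.473. ATM, the kinase that answers to double-strand breaks, had 0.45, -0.10 and -0.56, with a mean of -0.07 ± 0.51. CHEK1, the kinase downstream of ATR, had 0.97, -0.16 and 0.36, and CHEK2, downstream of ATM, was near 0 in every pair and near background. The median of the 16 tested double-strand break genes was 0.21, with 0.34, 0.13 and 0.15 by pair.

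**Figure D3:**
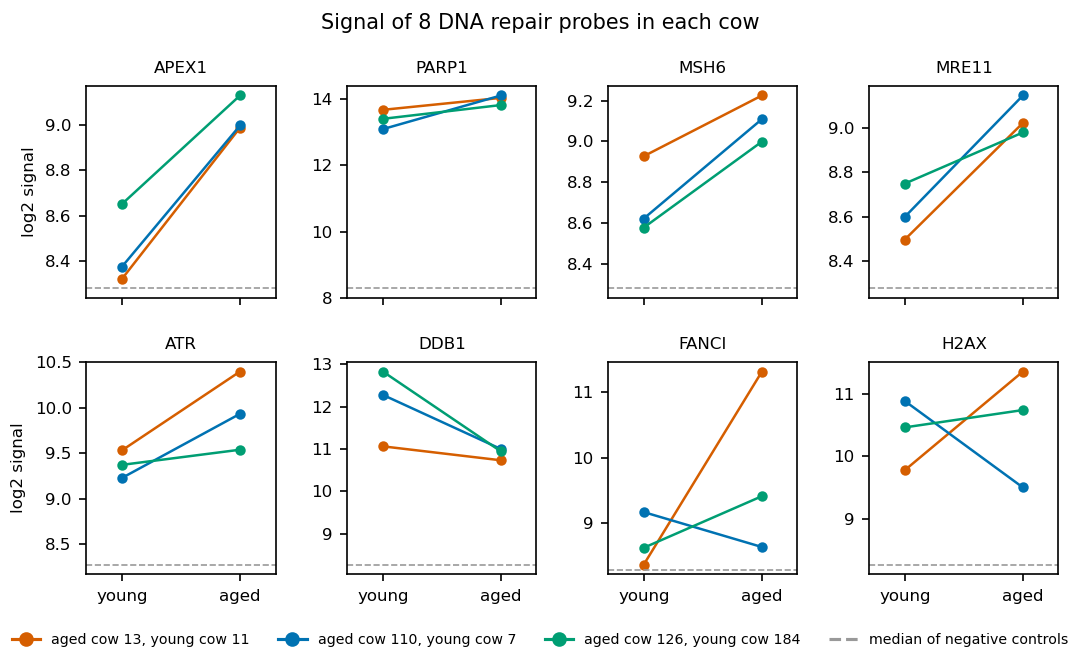
Each panel shows the log2 signal of a probe (vertical axis, its own scale) in young and aged cows, with a line joining the cows that shared arrays and the dashed line at the negative control median of 8.28. In APEX1, PARP1, MSH6, MRE11 and ATR all 3 lines run upward and in DDB1 all 3 run downward, whereas in FANCI and H2AX the line of cows 7 and 110 runs against the others.

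In all, the signals of the 3 aged cows did not overlap those of the 3 young cows for 9 of the 31 tested genes (29.0%), against 18.3% of all tested genes. They were higher in aged cows for 8 (PARP1, APEX1, MSH6, MRE11, NBN, RAD52, XRCC4 and ATR) and lower for DDB1. Of the 9, APEX1, MSH6, MRE11, RAD52 and XRCC4 passed the filter through the aged channels alone, which favours such a gap. Among genes above background in both ages the count was 4 of 20 (20.0%), against 16.7% of all genes that met this condition. Any gap was counted, and that of NBN was 0.0044 and that of ATR 0.0078 on the log2 scale. In pair 126 the epithelial list averaged 10.21 in the aged and 10.27 in the young cow, the leukocyte list 11.24 and 10.05, and the luteinizing list 11.85 and 11.48. The ratios of these 9 genes in pair 126 were 0.48 for APEX1, 0.42 for MSH6, 0.42 for PARP1, 0.31 for RAD52, 0.23 for MRE11, 0.22 for XRCC4, 0.17 for ATR, 0.00 for NBN and -1.88 for DDB1. Their signs in pair 126 were set by the choice of genes without overlap, so these ratios are not a separate test of that pair. The genes at an unadjusted limma p under 0.05 depended on which pairs were used. APEX1 alone was left without pair 110, where 3.29% of all tested genes remained at that p. Without pair 13, the count was again 5, with APEX1 and MSH6 kept and DDB1, POLB and UNG added, against 9.47% of all tested genes. Without pair 126, the genes were APEX1, ATR, MRE11 and MSH6, against 17.6%.

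In another set of genes aged cow 13 had the highest signal. FANCI, which with FANCD2 forms the clamp that marks crosslinked DNA for repair, had a log2 signal of 11.32 in aged cow 13 and 8.63 and 9.41 in aged cows 110 and 126, against 8.36, 9.16 and 8.62 in young cows 11, 7 and 184. Aged cow 13 was the highest of the 6 cows, and young cow 11, its partner on the arrays, the lowest. The ratio was 2.96, -0.54 and 0.79, with a mean of 1.07 ± 1.76 (n = 3), the widest spread among the tested repair genes. FANCD2 had 0.51, 0.05 and -0.13. H2AX, the histone variant that is phosphorylated around breaks, had log2 signals of 11.35, 9.50 and 10.74 in aged cows 13, 110 and 126 and 9.78, 10.88 and 10.46 in young cows 11, 7 and 184. Its highest value was again in aged cow 13, but its lowest was in aged cow 110, so the ratio was 1.57 in one of these pairs and -1.38 in the other and averaged 0.16 ± 1.48.

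Proliferation markers were set beside these values. The 13 tested of 18 such genes averaged 10.3 in aged cow 13, between 8.92 and 9.36 in aged cows 110 and 126 and young cows 7 and 184, and 8.54 in young cow 11. Of the 13, 6 passed the filter through the aged channels alone and 0 through the young ones alone, which favours higher signal in aged cows. Their median ratio was 2.03, -0.09 and 0.41 in pairs 13, 110 and 126. CDK1, the kinase that drives entry into mitosis, had 1.37, 0.09 and 0.26, while MKI67 and TOP2A, other markers of cycling cells, were near background and not tested. FANCI, XRCC2, H2AX, UNG, CHEK1 and FANCD2, chosen after their values were seen, all had their highest signal in aged cow 13, the cow with the highest proliferation mean. In all, 13 of the 31 tested repair genes were highest in aged cow 13, 9 in aged cow 110, 5 in aged cow 126, and 0, 3 and 1 in young cows 11, 7 and 184. Of all tested genes, the shares in the same order were 18.3%, 16.5%, 18.2%, 15.1%, 14.7% and 17.3%. The filter favoured an aged cow as the highest for the 11 repair genes that passed through the aged channels alone. For the 20 repair genes above background in both ages, these counts were 9, 6, 3, 0, 1 and 1 in the same order. The shares among all genes that met this condition were not computed, so these counts cannot be set against a background of their own. UNG and H2AX were lowest in aged cow 110, while the proliferation mean was lowest in young cow 11. With pair 13 left out, H2AX and FANCD2 turned to a mean below 0, as did XRCC1 and RAD50, and the median of the 2 tested Fanconi genes moved from 0.61 to 0.04. The part of proliferating cells in these ratios was not tested.

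**Figure D4:**
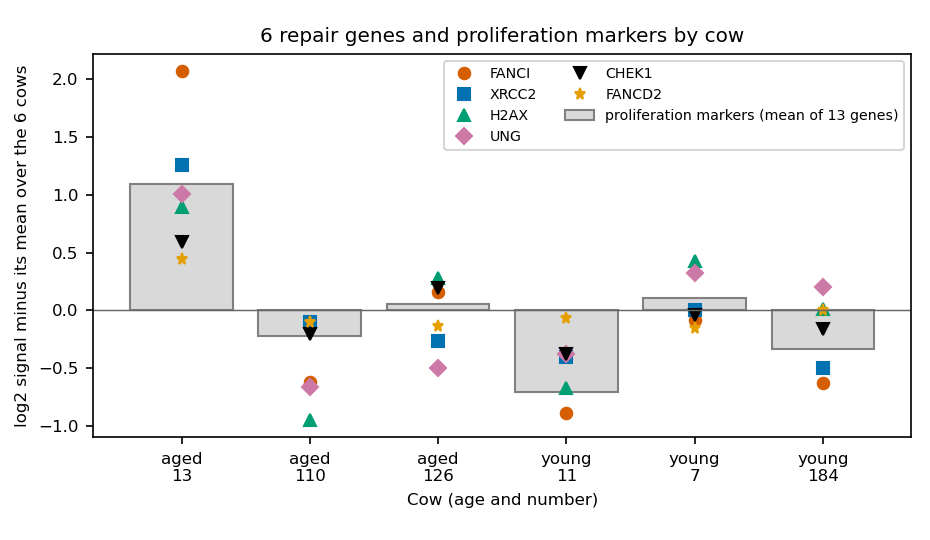
Markers give, for 6 repair genes, the log2 signal in each cow minus the gene's own mean over the 6 cows (vertical axis), and grey bars give the same for the mean of 13 proliferation genes. All 6 genes and the bar are highest in aged cow 13, and the proliferation bar is lowest in young cow 11, the cow hybridised with it.

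The classes could not be ranked against each other. Their medians ran from 0.19 for nucleotide excision repair through 0.21 for double-strand break, 0.23 for base excision and 0.40 for mismatch repair to 0.61 for the 2 Fanconi genes, while the median of a class moved between pairs from 0.36 to -0.02 in base excision and from 0.49 to -0.04 in mismatch repair. No comparison between classes was tested. Ratios in all pairs above 0 were counted for 2 of 7 base excision, 1 of 3 mismatch, 0 of 3 nucleotide excision, 8 of 16 double-strand break and 0 of 2 Fanconi genes, against 22.6% of all tested genes. Of the 16 double-strand break genes, 7 passed through the aged channels alone, among them 4 of the 8 counted (MRE11, RAD52, XRCC5 and XRCC4).

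A wider list of 114 other genes of DNA repair and damage signalling had 103 genes on the array and 81 tested. Of the 81, 27 (33.3%) were higher and 9 (11.1%) lower in the aged cow in all 3 pairs, 13 (16.0%) had an unadjusted limma p under 0.05, and 0 passed adjustment, beside 22.6%, 16.1% and 11.6% of all tested genes for the first 3 counts. Among its 64 genes above background in both ages the shares were 31.2%, 12.5% and 14.1%, beside 19.3%, 17.9% and 11.8%. The median ratio of the 81 tested genes was 0.17, with 0.26, 0.02 and 0.11 by pair. By the smallest p among genes with the same sign on all 6 arrays, those with higher aged signal were led by RAD17, which loads the damage clamp, at 0.37 ± 0.08. CCNH, a cyclin of the complex that serves both transcription and nucleotide excision repair, had 0.48 ± 0.18. RPA1, which coats single-stranded DNA, had 0.64 ± 0.31, MBD4, a glycosylase, 0.36 ± 0.16 and the helicase RECQL 0.26 ± 0.09. In the opposite direction, RAD51B, a recombination protein, had -2.22, -3.06 and -0.61 in pairs 13, 110 and 126. UBE2A, a ubiquitin-conjugating enzyme of damage tolerance, had -0.43 ± 0.31, and MPG, the glycosylase for alkylated bases, -0.63 ± 0.69. RPA1, MBD4 and RECQL were above background in 2, 3 and 4 of the 6 young channels, so that the size of their ratios rests on signal close to background. These 3 genes passed the filter through the aged channels alone, which favours ratios above 0.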

How the data were processed

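The authors deposited scanner files that hold, per the file headers, each spot's intensity (mean and median, linear, not normalised) and local background in Cy3 and Cy5, and a table of processed log2 ratios. Per the submitters' processing notes limma was used; other steps are not given in the sources used here. Set against the scanner values, the deposited log2 values run as aged over young on all 6 arrays (r from 0.819 to 0.939) with medians near 0.

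Spot means were background-corrected by normexp (offset 50) in limma 3.58.1 (R 4.3.3) and normalised by loess within arrays, with control and ignored spots at weight 0. The dye-swapped arrays were averaged to 1 value a pair, and lmFit and eBayes were run on these 3 values (two-sided, Benjamini-Hochberg over 20595 kept probes, threshold 0.05). The pairing is that of the hybridisations and is part of the fit by construction. A probe was kept where it exceeded the negative controls (153 spots, mean + 2 SD) in all channels of an age. On 1 array, 1 negative control that the image software had marked as ignored was left out, which leaves 152. A gene was represented by its brightest probe, and 12 repair genes had over 1. Levels per cow are channel log2 signals after loess and Aquantile, averaged over dyes, and compare cows for a probe only. Between 49.3% and 71.6% of probes were above background in a channel, and 3 pairs limit the precision.

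Probes were named through the platform annotation (21790 with 1 symbol, 22004 with none), with symbols updated through RefSeq. No coordinates are given, because the annotation names no build. The members, gene lists, tests and rules for named genes were chosen with earlier results of these data known. All repair genes could be named. From the wider list up to 5 per direction were named by the smallest p with the same sign on 6 arrays. The code was tested on simulated data.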

Additional observations from a re-analysis of the deposited data

How the results depend on the processing

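The count of repair genes past the adjusted threshold was 0 under every alternative run. Counts of genes with 1 direction in every pair and class medians moved more. The count lower in all pairs, 1 as reported, was 3 with median centring, 3 with no filter on dim probes (also 3 over all 44 genes), 0 with aged cows in Cy5 only and 5 with aged cows in Cy3 only. The count higher in all pairs, 11 as reported, was 5 among genes above background in both ages. With the fit rerun on such probes alone, 2 repair genes had an unadjusted limma p under 0.05, against 11% of all such genes. The median of 0.23 became 0.0894 without the filter, by construction over the undetected genes too (0.0894 over all 44 genes). The nucleotide excision median of 0.19 became -0.10 with spot medians and -0.0943 with the authors' deposited values, and the base excision median of 0.23 became 0.48 with median centring and 0.0016 without the filter; the cause was not tested. Leaving out each pair in turn, the counts ranged from 1 (without pair 110) to 5 at an unadjusted p under 0.05, 14 to 17 higher and 2 to 5 (without pair 13) lower, since fewer pairs need to share a direction, and the base excision median from -0.0024 (without pair 13) to 0.34. With no replicate block, treating 6 arrays as independent, 12 repair genes and 27.5% of all tested genes had an unadjusted p under 0.05, and 0 repair genes and 190 genes in all passed adjustment. With the slide, read from the scan names, as a random block 6 repair genes and 14.3% of all tested genes had such a p, and 0 passed. Keeping the ignored negative control, an alternative chosen after seeing the data, left 23 repair genes tested and 8 higher in all pairs. Signs of the mean ratio changed for 7 of 31 genes with the authors' deposited values (CHEK2, ERCC1, LIG4, MLH3, OGG1, XPA and XRCC5) and for 5 with spot medians. Dim probes limit what can be seen: 19 of 31 genes lay within 1 log2 unit of the negative controls.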
